A study of Medicago sativa with 6 samples.

Results

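Leaf and root nodules of alfalfa (Medicago sativa) were compared gene by gene in RNA-seq counts. A gene was placed on the leaf side when it reached 10 or more counts per 1000000 scaled counts in leaf and at least 4 times its nodule level. The nodule side was defined the same way in reverse. Levels are written TMM CPM, since library totals were scaled by trimmed means of M-values (TMM) fitted to every gene and all 6 libraries. Of 164633 annotated genes, 21261 reached the level in leaf or nodules, and 9118 of these (42.9%) met the rule. The leaf side held 3717 genes, or 17.5% of those at the level, and the nodule side held 5401, or 25.4%. The remaining 12143 lay on neither side. The rule chose these genes by their leaf and nodule values, so the counts and the sizes of the differences are given as a description without a test.

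All plants were of the genotype RegenSY27x, kept under 16 hours of light with day and night temperatures of 22 and 18 °C, and the labels name no treatment for any tissue. RNA of 3 replicates per tissue was pooled into 1 library each of leaf, nodules, roots, stem, flower (flower buds by its title) and seedpod. The growth protocol gives an age of 8 weeks for the tissue, whereas the number 20 in the stage label has no clear unit. Leaf had 8846524 counts and nodules 9883512, and the other 4 libraries had between 8568581 and 9018902. No spread between plants can be measured from 1 pooled library per tissue, and no p-value is given. Intervals are 95% intervals of counting error only, exact Poisson for levels and exact conditional binomial for ratios, since reads counted without molecular identifiers need not come from separate molecules.

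A leaf is the photosynthetic organ of the plant. Its cells make large amounts of the chloroplast proteins that are encoded in the nucleus, among them light-harvesting proteins and the small subunit of Rubisco. A legume nodule is an organ formed on the root, in which rhizobia live inside plant cells and fix nitrogen in exchange for plant carbon. Nodule cells of Medicago are known for abundant leghemoglobins, which hold oxygen low, and for large families of short secreted peptides that act on the bacteria. The files pair no gene names with the identifiers, apart from 1 PHO2 row, and no identifier was found among the 63463 genes listed for a different alfalfa assembly. Marker genes of leaf, nodule or other tissues could therefore not be checked, and genes are given below by their position and exon structure on the 4 haplotypes of each chromosome. The genome build is not given in the sources used here. In bulk tissue, fewer cells of a type and less RNA per cell cannot be told apart.

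The sides together held much of the RNA counted in each library. The leaf side took 42.0% of all leaf counts and 4.04% of all nodule counts. The nodule side took 45.3% of all nodule counts and 2.35% of all leaf counts. A large part lay in few genes, since the 100 most abundant genes of each side took 17.6% of the leaf counts and 16.7% of the nodule counts. At 1000 TMM CPM or more stood 74 genes of the leaf side and 51 of the nodule side. The share of genes on a side rose with the level, more steeply for leaf. Among genes whose higher library lay between 10 and 30 TMM CPM, 14.5% were on the leaf side and 24.5% on the nodule side. Among the 162 genes at 1000 or more, the shares were 45.7% and 31.5%.

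**Figure D1:**
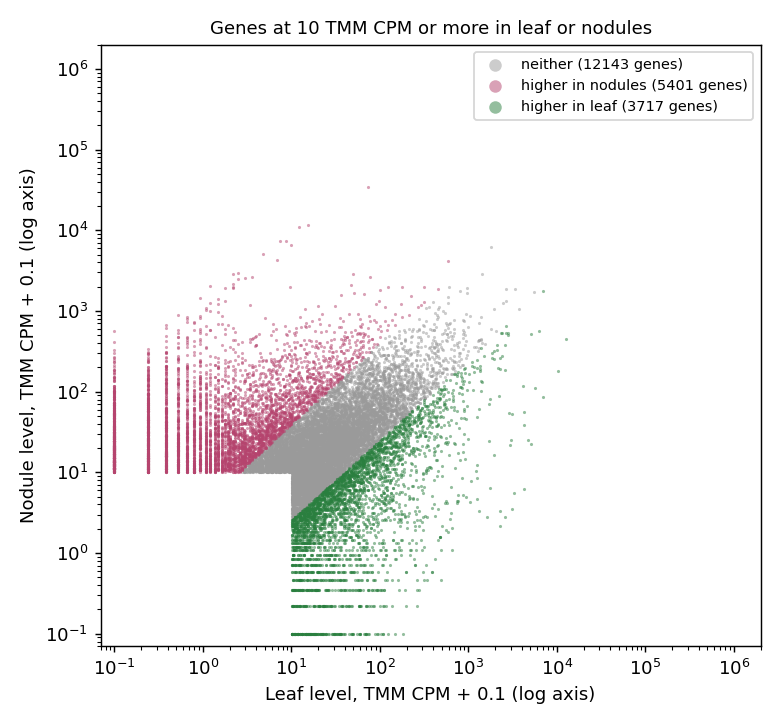
Each point is 1 of the 21261 genes that reached 10 TMM CPM in leaf or nodules, with its leaf level on the x axis and its nodule level on the y axis (log axes, 0.1 added so that genes with 0 counts are shown). The 3717 leaf-side genes lie below the band of 12143 genes on neither side, and the 5401 nodule-side genes lie above it, with many at or near 0 in leaf.

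Differences were larger on the nodule side. The median ratio of nodules to leaf among its genes was 24.2 (quartiles 8.18 and 68.8), and the median ratio of leaf to nodules on the leaf side was 9.01 (5.47 and 28.0). Genes with 0 counts in the low library entered these medians at 3 counts, as a lower bound. There were 739 such genes on the nodule side (13.7%) and 164 on the leaf side (4.41%). At the other end, ratios between 4 and 8 made up 45.2% of the leaf side but 24.4% of the nodule side. The lower end of the ratio interval stood at 4 or more for 2849 leaf-side genes (76.6%) and 4661 nodule-side genes (86.3%). Leaf and nodules were also unequal in what 1 count is worth, at 0.139 and 0.122 TMM CPM.

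The border of the rule ran through closely similar genes. Just inside the ratio of 4 on the leaf side was a gene on chromosome 5.3 (72576612 to 72582113) whose leaf and nodule levels were 19.1 and 4.77 TMM CPM, giving a ratio of 4.002 (2.79 to 5.87). Just outside was a gene on chromosome 8.3 (17694088 to 17698341) with 27.9 and 6.97, a ratio of 3.998 (2.96 to 5.47). On the nodule side, a gene on chromosome 4.2 (50602328 to 50605165) reached 76.9 TMM CPM in nodules against 19.2 in leaf, giving a ratio of 4.0005 (3.32 to 4.85). A gene on chromosome 3.1 (38162863 to 38166628) with 15.0 and 3.76 stayed outside at 3.998 (2.62 to 6.31). The intervals of these 4 genes all included the ratio of 4.

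The most abundant leaf-side genes were nearly all next highest in nodules. Levels are per gene and not per length, so the order of different genes is an order of counts. MS.gene062068, with 5 exons and 558 nucleotides of coding length on chromosome 2.3 (45194515 to 45196161), stood at 12549.2 TMM CPM in leaf. Its nodule level was 449.5, and roots, stem, flower and seedpod had 15.7, 10.3, 7.25 and 8.80. MS.gene85296, with 3 exons and 351 nucleotides on chromosome 2.4 (45328462 to 45329256), reached 10177.1 in leaf, 180.2 in nodules, 11.7 in roots and 8.54 in stem. In both genes leaf was far above every other library, and nodules stood well above the remaining 4. A 10-exon gene on chromosome 3.3 (85634143 to 85642942) had the same order, at 6908 in leaf, 85.1 in nodules, 12.3 in roots and 7.39 in stem, a ratio of leaf to nodules of 81.2 (75.3 to 87.6).

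The other genes among the 8 most abundant varied in how far leaf stood above nodules. A 4-exon gene on chromosome 2.4 (71310137 to 71311637) reached 7017 TMM CPM in leaf against 1749.5 in nodules, then 147 in roots and 49.5 in stem. Its ratio of 4.01 (3.94 to 4.09) lay at the border of the rule and fell to 3.93 with library totals, so its place on the leaf side depended on the scaling. A 5-exon gene on chromosome 1.2 (77552591 to 77554200) stood at 6243 in leaf against 572 in nodules, or 10.9 times lower there (10.6 to 11.3). A 3-exon gene of 375 nucleotides on chromosome 7.4 (3753611 to 3755150) reached 5164 in leaf, 525 in nodules, 175 in roots and 46.9 in stem. The gene of rank 6, with 4 exons and 348 nucleotides on chromosome 8.3 (16800748 to 16801549), reached 5718 in leaf and 111 in nodules. Its same-structure copy on chromosome 8.1 (19037414 to 19038218) reached 4775 and 25.2, while the copy on chromosome 8.2 (from 19060863) stood at 10.3 and 0.122, the latter a single count. In the copy on chromosome 8.1, stem at 93.9 and flower at 93.2 were above nodules. These copies thus differed in leaf level far more than in which library was highest. Among the 8 genes, the exception to nodules as next highest was a single-exon gene of 402 nucleotides on chromosome 5.1 (66593411 to 66593812). It had 5068 in leaf and 22.5 in nodules, whereas seedpod had 532 and stem 132.

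The leaf-side genes with the largest ratios, judged by the lower end of the interval, were almost absent from nodules. A single-exon gene on chromosome 4.3 (64323279 to 64323872) reached 2265 TMM CPM in leaf against 2.08 in nodules, 1090-fold higher (681 to 1872). In roots it had 2.44, in stem 2.11 and in seedpod 39.7. A pair of 15-exon genes followed on chromosome 1.4, starting at 63480552 and 63498918. They had 2593 and 3086 in leaf, 2.69 and 3.42 in nodules, and no more than 4.56 in any other library. Their ratios were 964 (637 to 1539) and 902 (624 to 1357). Counts of highly concentrated genes were also compared between libraries. For leaf genes with 5000 or more counts and under 1% of them in each of flower, roots, seedpod and stem (7 genes), the nodule counts were 0.118% to 4.08% of the leaf counts, with a median of 2.02%. Carry-over between libraries was not tested.

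**Figure D2:**
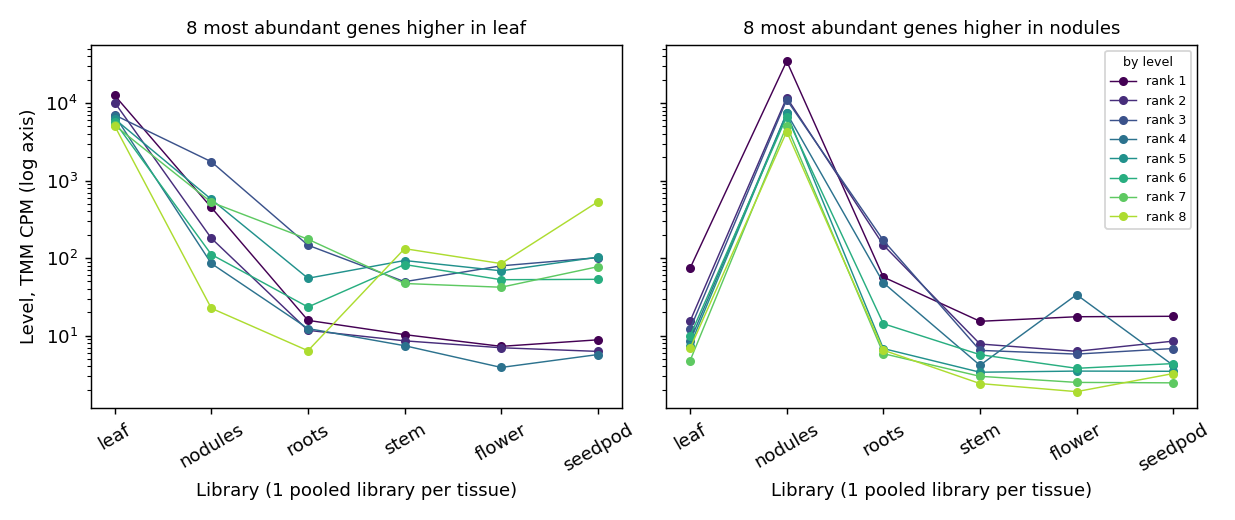
The 8 most abundant genes of each side are drawn across the 6 libraries, with the level in TMM CPM on a log axis and 1 line per gene. The left panel shows leaf levels between 5068 and 12549.2 with nodules next highest in all but the gene of rank 8, and the right panel shows nodule levels between 4285 and 34773.4 with leaf at 74.0 or less.

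On the nodule side, the most abundant gene belonged to a group of similar genes on chromosome 5. MS.gene010103 (chromosome 5.2, 56059595 to 56062028) had 34773.4 TMM CPM in nodules, 74.0 in leaf, 56.9 in roots and 15.3 in stem. Its 4 exons, 444 nucleotides in all, have the same lengths as those of 11 other genes on the 4 haplotypes of that chromosome. Of the 12 genes, 11 were on the nodule side, with nodule levels from 19.4 to 34773.4, and the remaining gene had 0.733. Together they reached 47093 TMM CPM in nodules, 3.90% of the library, against 87.6 in leaf, 73.7 in roots and 22.2 in stem. MS.gene010103 contributed 73.8% of the counts of the group. The next members lay on chromosome 5.2 (from 68740153) at 5114 in nodules and 4.74 in leaf, and on chromosome 5.4 (from 63361169) at 4285 and 6.82. Reads shared between such similar genes may be split among them in ways that the counts do not show.

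A second gene of the nodule side, MS.gene040567 (chromosome 2.3, 26805594 to 26807124, 4 exons), had 11783.9 TMM CPM in nodules and 15.3 in leaf. The ratio was 769 (638 to 936), and roots at 147 were clearly above leaf. A 4-exon gene of 669 nucleotides on chromosome 2.2 (23205893 to 23207478) behaved alike, at 11052.4 in nodules, 12.1 in leaf, 169 in roots and 6.43 in stem. A 2-exon gene on chromosome 3.2 (30124555 to 30125233) had 7443 in nodules, 8.50 in leaf and 48.0 in roots, with 33.7 in flower. By contrast, another 2-exon gene on chromosome 3.2 (76076055 to 76076985) had 7362 in nodules and 6.79 in roots, no higher than its 7.38 in leaf. Another 2-exon gene, on chromosome 2.3 (26797376 to 26797839), lies close to MS.gene040567 and had 6669 in nodules, 9.89 in leaf and 14.2 in roots.

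The largest ratios on this side were found in genes with few or no leaf counts. A single-exon gene on chromosome 2.3 (477654 to 478271) had 558.6 TMM CPM in nodules, 17.7 in roots and 0 leaf counts, so nodules were at least 1337-fold higher against a floor of 3 counts in leaf. The exact interval of this ratio, from the 0 leaf counts, began at 1087. A 3-exon gene on chromosome 3.3 (44839986 to 44841778) had 2019 in nodules and 1.11 in leaf, a ratio of 1812 (919.5 to 4198). A 4-exon gene on chromosome 7.4 (39271138 to 39273884) stood at 2909 and 2.09, a ratio of 1392 (844 to 2488). For comparison, 25 genes with 5000 or more nodule counts and under 1% of them in each of flower, roots, seedpod and stem had leaf counts at 0.0360% to 0.187% of the nodule counts, with a median of 0.0849%. MS.gene010103 stood at the top of this range, with 0.187%. The leaf counts of such genes thus lay within a narrow range relative to their nodule counts, which also bounds their ratios. This was not particular to leaf. Nodule genes chosen the same way had medians of 0.0661% in seedpod (25 genes), 0.0719% in flower (29) and 0.0727% in stem (26). In roots the median was 0.174% (33). The largest values were 0.400% in seedpod, 1.61% in stem, 7.29% in flower and 72.0% in roots. Carry-over was not tested.

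Roots and stem did not enter the rule and gave a separate view of both sides. Over all 19733 genes at 10 TMM CPM or more in roots or stem, 11.9% were at least 4 times higher in stem and 14.0% at least 4 times higher in roots. Of the leaf side, 1938 genes (52.1%) reached the level in roots or stem. Of these, 34.2% were higher in stem and 4.85% higher in roots, which is 662 and 94 genes, or 17.8% and 2.53% of the whole leaf side. Of the nodule side, 3389 genes (62.7%) reached the level. Of these, 37.5% were higher in roots and 4.40% higher in stem, which is 1270 and 149 genes, or 23.5% and 2.76% of the whole nodule side. Genes on neither side seldom differed between stem and roots, at 2.34% and 4.72% of the 9655 that reached the level.

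The leaf side thus leaned to stem and the nodule side to roots, each above the share over all genes, and the reverse was rarer than over all genes. The median of log2 stem minus log2 roots, with 1 TMM CPM added, was 0.38 on the leaf side, -0.71 on the nodule side and -0.11 on neither side. Roots and stem are 1 pooled library each, so this too is a description of these libraries.

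**Figure D3:**
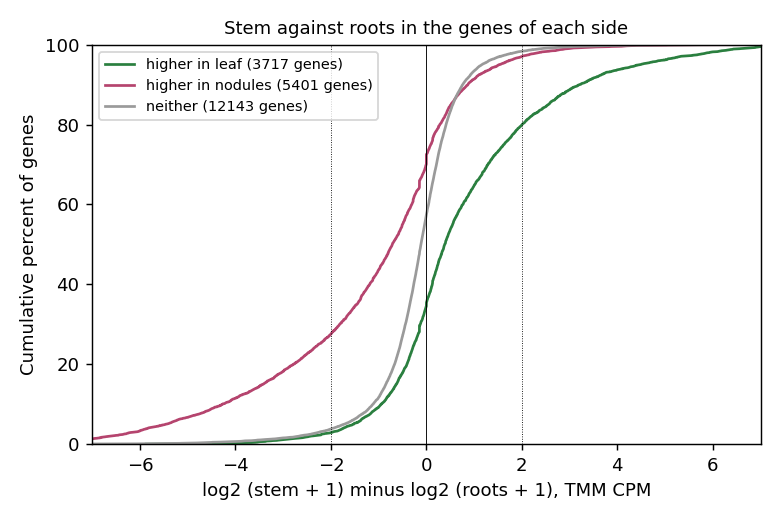
Cumulative percent of genes (y axis) against the log2 difference of stem and roots with 1 TMM CPM added (x axis), for the leaf side, the nodule side and genes on neither side. Dotted lines mark a difference of 4 times. The curve of the leaf side lies to the right, with a median of 0.38, and that of the nodule side to the left, with a median of -0.71.

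Median levels of the leaf side were lower in every other library than in leaf. The median level was 39.0 TMM CPM in leaf, 8.83 in stem, 4.35 in roots and 3.42 in nodules. Within 4 times of the leaf level, or above it, stood 39.8% of the genes in stem, 39.0% in seedpod, 35.6% in flower and 20.8% in roots. In 1680 genes (45.2%) none of these 4 libraries came within 4 times of leaf. Another 646 (17.4%) were within 4 times in flower, seedpod and stem but not in roots. In 331 (8.91%) all 4 were, so that only nodules fell outside this range. Leaf was the highest of the 6 libraries for 85.3% of the leaf side, and roots for 0.646%. The rule chose these genes for a high leaf level, which itself tends to place leaf above the other libraries. None of these shares was set against all genes at the level.

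The nodule side was shared with roots far more often. The median level was 31.2 TMM CPM in nodules, 13.9 in roots, 4.13 in stem and 1.39 in leaf. Within 4 times of nodules, or above, stood 61.0% of the genes in roots, against 37.8% in stem, 35.6% in seedpod and 34.6% in flower. In 1754 genes (32.5%) no other library came within 4 times. Roots alone did so in 1216 (22.5%), and all 4 did in 1419 (26.3%), so that only leaf fell outside this range. Nodules were the highest library for only 64.8% of the nodule side, while roots were highest for 14.8% and flower for 542 genes. At least 4 times higher in roots than in nodules were 146 genes of the nodule side, and 2 genes of the leaf side were at least 4 times higher in roots than in leaf. Here too the genes were chosen for a high nodule level, and the shares were not set against all genes at the level.

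Single genes show such sharing. On the leaf side, the most abundant gene within 4 times of leaf in both roots and stem was a 3-exon gene of 339 nucleotides on chromosome 2.4 (70640300 to 70641115). It had 1828 TMM CPM in leaf, 589 in roots, 514 in stem and 259 in nodules. Nodules were thus lower than roots and stem, but seedpod at 206 and flower at 67.8 were lower still. A gene of the same length and exon number on chromosome 2.1 (70766411 to 70767242) followed, at 1241 in leaf, 522 in roots, 443 in stem and 199 in nodules. Seedpod had 157 there and flower 56.1. Both genes belong to the class within 4 times in roots and stem only, which held 45 leaf-side genes (1.21%). A 4-exon gene on chromosome 4.4 (51969200 to 51978036) had 885 in leaf, 341 in roots, 277 in stem and 136 in nodules. In this gene seedpod, at 231, and flower, at 213, were above nodules.

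On the nodule side, a 22-exon gene of 6585 nucleotides on chromosome 1.1 (13137081 to 13148639) was high in nodules and roots. It had 2893 TMM CPM in nodules, 891 in roots, 314 in stem and 50.0 in leaf, a ratio of nodules to leaf of 57.9 (52.1 to 64.4). A gene of the same length and exon number on chromosome 1.4 (12810412 to 12822018) had 2666, 741, 305 and 76.6 in the same order. A 9-exon gene on chromosome 8.4 (74755577 to 74760274) was higher in roots, at 3823, than in nodules, at 1998. It had 9.47 in leaf and 5.57 in stem.

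In other abundant nodule-side genes, leaf was low while several other libraries stood within 4 times of nodules or above them. A single-exon gene on chromosome 2.4 (44175096 to 44176286) had 1812 TMM CPM in nodules, 2098 in seedpod, 1551 in stem and 1039.7 in roots, but 99.2 in leaf. A 13-exon gene on chromosome 1.1 (58423039 to 58427052) had 599.8 in nodules, 716 in stem, 723 in seedpod and 134 in roots, against 6.55 in leaf. A 16-exon gene on chromosome 7.2 (9201408 to 9205996) had 2003 in nodules, 1116 in roots, 599 in stem and 124 in leaf. A 3-exon gene on chromosome 1.4 (88487619 to 88492417) was highest in roots, with 8195 in roots, 1964 in nodules and 1190 in stem, while leaf at 313 was above flower at 228 and seedpod at 237.

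The sides also differed in gene structure. The exon-length sums in the table were multiples of 3 for 98.8% of the genes at the level and are called coding lengths. Their median was 1224 nucleotides over all 21261 genes at the level, 1179 on the leaf side, 1116 on the nodule side and 1281 on neither side. Single-exon genes made up 22.2% of the nodule side (1197 genes), 14.1% of the leaf side (525), 15.4% of all genes at the level and 12.8% of those on neither side. Genes with 10 or more exons were fewer on both sides, at 15.9% and 19.2%, against 22.5% of all at the level. The genomic span had a median of 2354 bases on the nodule side, 2996 on the leaf side and 3237 over all at the level.

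Read by class, the nodule share fell with exon number while the leaf share moved less. Of the 3280 single-exon genes at the level, 36.5% were on the nodule side and 16.0% on the leaf side. Of the 2462 with 2 exons the shares were 32.4% and 22.2%, and of the 4775 with 10 or more they were 17.9% and 14.9%. Among the length classes, the shares lay farthest apart under 300 nucleotides, where 176 of 587 genes were on the nodule side and 59 (10.1%) on the leaf side. From 300 to under 450 nucleotides the shares were 26.9% and 18.4%, close to the shares of 25.4% and 17.5% over all genes at the level. A 2-exon structure under 300 nucleotides was held by 58 genes of the nodule side (1.07%) and 16 of the leaf side (0.430%), against 0.814% of all at the level. Reads per gene grow with length, so short genes reach 10 TMM CPM only at a higher level per length, on either side.

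**Figure D4:**
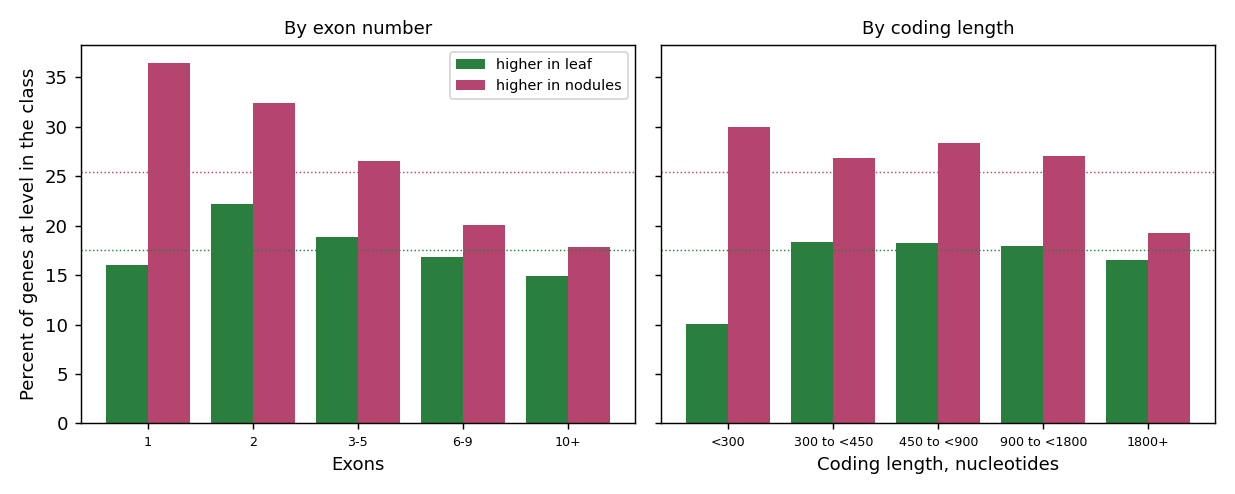
Percent of the genes at the level (y axis) that were on the leaf side or the nodule side, by exon number (left) and by coding length (right), each with its number of genes as the denominator. Dotted lines give 17.5% and 25.4%, the shares over all genes at the level. The nodule bars fall from 36.5% for 1 exon to 17.9% for 10 or more, and the leaf bar is lowest, at 10.1%, for genes under 300 nucleotides.

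Within each side, structure changed with the size of the difference. Among nodule-side genes with ratios from 4 to 8, the median coding length was 1170 nucleotides, 17.1% had 1 exon and 12.5% were within 4 times in no other library. Among those with ratios of 100 or more and counts in both libraries, the values were 1035 nucleotides, 24.7% and 55.2%. On the leaf side the same classes had 1260 and 1094 nucleotides, and 38.1% and 57.5% within 4 times in no other library. The classes also differed in level. The median in the higher library was 29.5 and 70.5 TMM CPM on the nodule side, and 37.0 and 85.4 on the leaf side. Ratio and level were not separated. The decline in length was not steady, since the median was 1209 on the nodule side at ratios from 8 to 16 and 1170 on the leaf side at ratios from 16 to 32. Genes with 0 counts in the low library were kept out of these classes. Their median lengths were 1047 on the nodule side and 1068 on the leaf side. Of them, 64.7% and 53.7% were within 4 times in no other library.

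Members of the same side were often neighbours on the chromosome. On the nodule side, 982 genes (18.2%) had a nodule-side gene as the annotated gene directly before or after, compared with 9.80% of the other genes at the level. On the leaf side, 492 (13.2%) had a leaf-side neighbour, compared with 7.16%. Neighbours can be copies that share reads. By chromosome, the nodule share of the genes at the level lay between 22.5% on chromosome 1 and 27.5% on chromosome 5, and the leaf share between 16.5% on chromosome 5 and 18.2% on chromosome 2.

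The longest unbroken row of nodule-side genes held 7 genes on chromosome 6.1 (60866617 to 61050510). Their nodule levels were 13.6 to 199.7 TMM CPM, and together they had 762 in nodules, 13.9 in roots, 1.11 in leaf and 0.384 in stem. A row of 6 on chromosome 3.3 (44767715 to 44850846), with 6 different exon structures, reached 3394 in nodules against 11.99 in roots and 3.62 in leaf. A row of 5 on chromosome 2.1 (2461624 to 2488942), each with 3 exons and 399 to 699 nucleotides, had 1247 in nodules, 1.91 in roots and 2.09 in leaf. Not every row was low in roots: 5 single-exon genes on chromosome 7.4 (15208308 to 15256952) had 481 in nodules and 274 in roots, against 1.53 in leaf.

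The longest rows on the leaf side held 4 genes. One on chromosome 6.3 (8723107 to 8744022) summed to 204 TMM CPM in leaf, 0.733 in nodules, 1.06 in roots and 0 in stem. A second on chromosome 6.3 (14080471 to 14091988) summed to 641 in leaf, 30.3 in nodules and 26.2 in roots, but 1509 in stem. The last, on chromosome 6.2 (72794412 to 72844383), summed to 2568 in leaf, 306 in nodules, 179 in roots and 134 in stem. Stem was above leaf in 1 of these rows and below it in the others.

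Alfalfa is tetraploid, and a gene can be annotated on several haplotypes. Genes of at least 3 exons with equal exon lengths in equal order, on haplotypes of 1 chromosome, were treated as same-structure copies. Such a copy existed for 1518 leaf-side genes and 2160 nodule-side genes, given without a share over all genes at the level. Where at least 2 copies reached the level and 1 was on the leaf side, all of them were on the leaf side in 364 of 552 groups (65.9%). For the nodule side this held in 530 of 702 groups (75.5%). In most other groups the remaining copies were on neither side, and 7 groups had copies on opposite sides. Copies share sequence and may share reads, so they are not independent measurements.

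In 23 leaf-side groups and 28 nodule-side groups, exactly 4 copies lay on the 4 haplotypes and all were on the same side. These counts are not set against all 4-copy groups at the level, so they show no excess. The most abundant such nodule group had 12 exons and 1071 nucleotides on chromosome 6, with ratios of nodules to leaf between 6.79 and 9.79. Its copies on chromosomes 6.1, 6.2, 6.3 and 6.4 had 1515, 423, 754 and 4136 TMM CPM in nodules and 223, 60.4, 77.0 and 587 in leaf. Copies thus differed in level by more than they differed in ratio. A 4-copy group on chromosome 5, with 4 exons and 462 nucleotides, had 1876 in nodules together and 2.09 in leaf, 1.17 in roots and 1.06 in stem. Another 12-exon group of 1071 nucleotides, on chromosome 3, had 2253 in roots, 1309 in nodules, 180 in stem and 32.7 in leaf.

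The most abundant 4-copy leaf group had 3 exons and 375 nucleotides on chromosome 7. Together its copies had 7957 TMM CPM in leaf, 738 in nodules, 241 in roots and 73.5 in stem, with ratios of leaf to nodules from 7.19 to 14.1. A 5-exon group of 1206 nucleotides on chromosome 3 had 1613 in leaf, 588 in stem, 730 in seedpod and 226 in flower. Roots, at 14.7, and nodules, at 8.56, were the lowest. An 11-exon group on chromosome 2 had 1080 in leaf, 694 in stem, 1158 in seedpod and 334 in flower, against 2.97 in roots and 2.69 in nodules.

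PHO2, the ubiquitin-conjugating enzyme known as a brake on phosphate accumulation in shoots, is named in the title of the series. MS.genePho2-1d stood at 78.6 TMM CPM in leaf against 37.3 in nodules, and its ratio of 2.11 (1.83 to 2.43) kept it on neither side. On the other haplotypes 3 genes have 7 exons equal in length to its own in all but, at most, the exon listed first. The coding length is 2739 nucleotides for MS.genePho2-1d and the gene on chromosome 2.3, and 2751 for the others. The gene on chromosome 2.3 met the rule at 44.2 in leaf against 9.05 in nodules, with a ratio of 4.88 and an interval of 3.78 to 6.37. MS.genePho2-1d and these 3 genes summed to 360 in roots, 266 in leaf, 105 in nodules and 34.4 in stem, so roots were above leaf. Among 4 genes on chromosome 4 with 7 exons, the last 4 listed equal in length to those of MS.genePho2-1d, 2 were on the nodule side. In sum the 4 genes had 61.0 in nodules and 0.975 in leaf, a ratio of 62.6 (30.1 to 156). Roots had 87.2, seedpod 55.7, stem 49.6 and flower 11.4, so leaf was low beside these libraries as well.

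The size of each side depended on the scaling, and under 1 scaling so did the order of the sides. The ratio of the scaled nodule to the scaled leaf library size was 1.14 with TMM and between 1.11 and 1.54 with the others. The median log2 difference of leaf minus nodules, over 20358 genes at the level with counts in both, was 0.11 with TMM, 0.09 with library totals, 0.19 with DESeq2 size factors and 0.55 with upper quartile factors. The leaf side made up 40.8% of the genes on either side with TMM and between 39.3% and 43.2% with 5 other scalings. With upper quartile factors the leaf side made up 54.3%, with 5443 genes on the leaf side and 4575 on the nodule side. Under all 7 scalings, 3312 genes of the leaf side (89.1%) and 4281 of the nodule side (79.3%) met the rule.

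**Figure D5:**
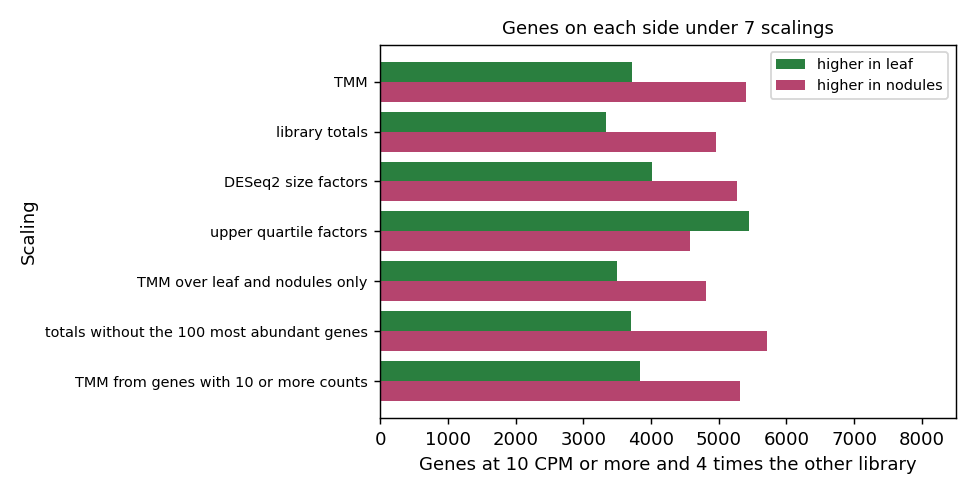
Number of genes on the leaf side and on the nodule side (x axis) under each of 7 scalings (y axis), with the same level of 10 and ratio of 4. The nodule side is the larger in 6 scalings and the leaf side, at 5443 against 4575, with upper quartile factors.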

How the data were processed

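RNA-seq counts of 6 alfalfa tissues were analysed, with 1 library per tissue. The authors deposited raw counts per gene and, as another quantity, the summed exon length with the position and strand of every exon, per the file headers. The tools listed, with no version, are FastQC, Trimmomatic, edgeR and featureCounts, per the submitters' processing notes. The sources used here do not give the aligner, genome build, strand setting or treatment of multiply matching reads, so reads of haplotype copies and of overlapping or antisense genes may be split or pooled in ways that change a single gene's count.

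Effective library sizes came from edgeR 4.0.16 (TMM, all genes, all 6 libraries) in R 4.3.3, and counts were divided by them per 1000000. Alternatives were library totals, DESeq2 1.42.0 size factors, upper quartile factors, TMM over the leaf and nodule libraries, totals without the 100 most abundant genes of any library, and TMM from genes with 10 or more counts. Levels of 5 and 20, ratios of 2 and 8, a limit on the interval, thinning and summed copies were also tried. No test was possible with 1 library a side. A count of 0 was set to 3 counts for ratios. The calling rule was tested on simulated data with Poisson counting error only. That check does not cover variation between plants, error in the scaling or shared reads.

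The members and lists were chosen with earlier results of these data known. The identifiers of 2 genes per side, those highest in level, are printed, since the files give no gene names. By position are given genes of ranks 3 to 8, the 3 largest ratios by the lower interval end, the 3 most abundant of each sharing class, the genes nearest to the border, copy groups and PHO2, in part. Rows of neighbours, structure classes and copy groups beyond these were picked with their values in view. Tables and intervals were made in Python 3.11.15 with scipy 1.17.1, pandas 2.3.3 and numpy 2.4.6, and plots with matplotlib 3.10.9.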

Additional observations from a re-analysis of the deposited data

How the results depend on the processing

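The number of genes higher in leaf was 3717. It moved by more than 1.5 times only with a ratio of 2 (6960 genes) or of 8 (2036 genes), and otherwise lay between 2663 and 5443. The number higher in nodules was 5401 and lay between 3663 and 7618 under all 13 alternatives. The share of the leaf side at least 4 times higher in stem than in roots was 17.8%. It was 20.1% with library totals, 16.2% with DESeq2 size factors, 13.7% with upper quartile factors, 20.8% with library totals that omit the 100 most abundant genes, 21.7% at a level of 5, 13.6% at a level of 20, 20.6% with a ratio of 8 and 20.8% when the lower end of the interval had to reach 4. The share of the nodule side at least 4 times higher in roots than in stem was 23.5%. It was 24.9% with upper quartile factors, 25.7% at a level of 5 and 21.6% at a level of 20. With a ratio of 2 it was 27.1%, and with the limit on the interval 25.8%. The levels of 5 and 20 and the ratios of 2 and 8 were applied to stem against roots as well. Thus 20.6% counts leaf-side genes at least 8 times higher in stem, and 27.1% nodule-side genes at least 2 times higher in roots. Those values are not the share at 4 times. All these are shares of the whole side, unlike the shares over all genes at the level in roots or stem. The share over all genes was not computed under the alternatives, so the lean of each side is not shown for them. The share of leaf-side genes within 4 times of leaf in stem was 39.8% and was 52.4% with library totals and 49.9% once the most abundant genes were left out of the totals. The cause was not tested. TMM over leaf and nodules only gives no value for roots and stem. No paired analysis was possible because each tissue has 1 pooled library, and no replicate could be left out. Depth limits ratios with few counts on the low side, where 3 counts equal 0.418 TMM CPM in leaf and 0.367 in nodules.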

Other observations

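In 7 groups of same-structure copies, genes of the leaf side and of the nodule side stood together. The clearest was a group of 8 genes with 5 exons and 1089 nucleotides on chromosome 5, which lie in close pairs on each of the 4 haplotypes. On chromosome 5.2 the gene starting at 21640162 had 356 TMM CPM in nodules, 134 in roots, 81.1 in stem, 199 in flower and 0.975 in leaf. The neighbour starting at 21623409 had 26.7 in leaf, 86.2 in stem, 2.12 in roots and 1.10 in nodules, and was highest in flower, with 535. On chromosome 5.4 the pair showed the same contrast at lower levels, with 45.5 in nodules and 0.557 in leaf for the gene starting at 21447338, and 5.57 in leaf and 0.489 in nodules for the gene starting at 21439906, which was under the level of 10 and had 225 in flower. On chromosome 5.3 the gene starting at 20354090 had 9.90 in nodules and 0 counts in leaf, and the gene starting at 20346430 stood at 133 in flower, 5.15 in leaf and 0.244 in nodules. In these 3 pairs the genes higher in leaf than in nodules were thus far higher in flower than in leaf. On chromosome 5.1 the gene starting at 21576431 had 127 in nodules and 0.696 in leaf, and the gene starting at 21568932 had no counts in leaf or nodules and 4 in flower.

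Some of the other groups had their opposite copies on different haplotypes, as in these examples. Among 4 genes with 13 exons and 2283 nucleotides on chromosome 5, the copy on chromosome 5.1 (from 77206542) had 78.1 TMM CPM in nodules and 8.22 in leaf. The copy on chromosome 5.2 (from 81215531) had 85.9 in leaf and 17.7 in nodules, and its ratio interval began at 4.04. Among the genes with 5 exons and 1575 nucleotides on chromosome 8, one on chromosome 8.3 (from 56118233) had 191 in leaf and 2.81 in nodules, and one on chromosome 8.1 (from 61954130) had 55.5 in nodules and 4.88 in leaf. These groups were picked after their values were seen, and their sequences were not compared.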
